A study of Mus musculus with 42 samples.

Results

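The 8 genes followed here through a mouse visceral adipose tissue (VAT) RNA-seq series are the 3 atypical chemokine receptors Ackr2, Ackr3 and Ackr4, the chemokine Cxcl12 with its signalling receptor Cxcr4, and the chemerin gene Rarres2 with the chemerin receptors Cmklr1 and Ccrl2. They are 8 of the 55011 genes in the count table and were matched by symbol, and all 8 were found. The members were chosen from earlier results of these data. Those results had singled out Ackr3 as high in fresh VmSC5, high in VmSC4-derived VmSC5 and more lowered by culture in VmSC5, and Cmklr1 as low in VmSC4-derived VmSC5. For these 3 contrasts, and for VmSC5-derived VmSC5 against VmSC4-derived VmSC4, which reuses the same libraries, the levels of all 8 genes are given as a description with no test.

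Atypical chemokine receptors bind chemokines and carry them into the cell for breakdown without classical G protein signalling, so that they shape chemokine gradients. ACKR2 takes up inflammatory CC chemokines, ACKR3 takes up CXCL12, and ACKR4 takes up the homeostatic chemokines CCL19, CCL21 and CCL25. CXCL12 is made by stromal cells and acts through CXCR4 on leukocytes and progenitors. Chemerin, encoded by Rarres2, is an adipokine secreted as an inactive precursor and activated by proteases. It signals through CMKLR1, and CCRL2 binds it without signalling and presents it on the cell surface.

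The series holds 42 libraries in 15 groups, from poly(A) RNA. VmSC4 and VmSC5 are stromal populations sorted from VAT of Pparg-Tdt mice. Their groups were VmSC5 and VmSC4 transferred into recipients that the series text calls Kaeda and sorted again as VmSC5-derived VmSC5 (n = 2), VmSC4-derived VmSC5 (n = 3) and VmSC4-derived VmSC4 (n = 3), VmSC5 and VmSC4 after 8 days of adipogenic differentiation (n = 3 each), and fresh VmSC5 and VmSC4 (n = 3 each). Floating cells labelled adipocyte came from Pparg-Tdt:Foxp3-DTR+ mice given diphtheria toxin, which kills Foxp3-expressing regulatory T (Treg) cells in that strain, and from Foxp3-DTR- littermates given the same toxin (n = 2 each). Pparg-Tdt VmSC5 under adipogenic differentiation were kept with or without Treg (n = 3 each). The titles say only that, and the series text speaks of medium conditioned by VAT Treg. The same kind of culture received oncostatin M (OSM), an IL-6 family cytokine, (10 ng/mL) or PBS, with 3 libraries per arm. The last groups were Treg of genotype OSMf/f, labelled Osm knockout (KO), and of genotype OSM+/+, labelled wild type (WT; n = 3 each). The Cre line of the KO, the sort gates, the ages of the mice and any pooling of animals are not given in the sources used here.

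Library totals ran from 1072147 to 12514783 counts. Levels are in CPM, which scales each count by its library total, with the SD over libraries. Log2 fold changes are ± SE from edgeR's quasi-likelihood test, and a gene was called where its Benjamini-Hochberg adjusted p over all genes tested was under 0.05. Whether replicates came from different animals or cultures is not stated, so the p-values reflect only how much these libraries vary, and that variation may be technical. The stromal list (Pdgfra, Pdgfrb, Col1a1, Col1a2, Col3a1, Dcn, Lum and Cd34) summed to 45650 to 159300 CPM in the fresh and transferred cells, and its 8 genes were all detected in each of these groups. The adipocyte list (Adipoq, Plin1, Fabp4, Lep, Cidec, Lipe, Pnpla2 and Lpl) summed to 42800 to 46420 CPM in the 8-day adipogenic cultures of VmSC5 and VmSC4 and to 45240 to 46330 CPM in the floating cells. The T cell list summed to between 4648 and 5372 CPM in the Treg libraries and to at most 12.9 CPM in every other library. In the KO libraries Osm itself was at 9.83, 14.6 and 7.76 CPM, against 29.1, 28.4 and 34.1 CPM in the WT libraries, so reads of the targeted gene remained (log2 fold change -1.51 ± 0.35, edgeR adjusted p = 0.271).

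In GRCm38, Ackr3 lies on chromosome 1 from 90203980 to 90216751 and Cxcl12 on chromosome 6 from 117168535 to 117181367, both on the plus strand. Rarres2 lies on chromosome 6 from 48569696 to 48572789 and Cmklr1 on chromosome 5 from 113612354 to 113650426, both on the minus strand. Another 3 members lie on chromosome 9: Ackr2 from 121898355 to 121911074 on the plus strand, and Ackr4 from 104084157 to 104126933 and Ccrl2 from 111054486 to 111057519 on the minus strand. Cxcr4 lies on chromosome 1 from 128588199 to 128592293 on the minus strand. Ackr4 shares 479 exon bases with Acad11 on the other strand, which reached a group mean of 251 CPM, and Rarres2 shares 892 exon bases with Lrrc61 on the other strand, which reached 68.7 CPM. The strand setting of the counting is not given in the sources used here, so the levels of Ackr4 and Rarres2 are uncertain by the reads of those neighbours.

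Ackr3 and Cxcl12 are shown with the 250 bases before their RefSeq start sites because both rose with OSM and with Treg. The sequences are from RefSeq in GRCm38.p6, on the plus strand, chr1:90203730-90203979 for Ackr3 and chr6:117168285-117168534 for Cxcl12. Capitals mark TATAAA and GGGCGG, or their reverse complements.
Ackr3: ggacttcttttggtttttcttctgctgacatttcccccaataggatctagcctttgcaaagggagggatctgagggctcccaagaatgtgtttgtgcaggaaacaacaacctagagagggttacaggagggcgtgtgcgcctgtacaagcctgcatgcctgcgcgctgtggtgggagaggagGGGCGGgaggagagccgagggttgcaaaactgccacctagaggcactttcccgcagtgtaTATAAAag
Cxcl12: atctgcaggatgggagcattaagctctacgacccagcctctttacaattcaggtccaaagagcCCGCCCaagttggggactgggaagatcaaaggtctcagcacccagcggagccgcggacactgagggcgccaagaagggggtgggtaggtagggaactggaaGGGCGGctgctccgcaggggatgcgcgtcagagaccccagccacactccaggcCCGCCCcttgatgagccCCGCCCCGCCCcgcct
Both strands were searched over 300 bases, 250 before and 50 after the start site, with overlapping matches counted. The motifs were GGGCGG, the core letters bound by SP1, then TATAAA, the classical core promoter element, and TTCNNNGAA, the letters of a STAT binding site. Ackr3 held 1 TATAAA, whose first base lay at position -8 from the start site, and 1 GGGCGG, at -68. Cxcl12 held 5 matches of GGGCGG and no TATAAA. Of 32851 promoters of this length, 13.6% held TATAAA, 35.7% held GGGCGG and 8.30% held TTCNNNGAA. TTCNNNGAA was in none of the promoter windows of the 7 members with an entry, and Rarres2 had no entry.

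Across the 15 groups the scavenging receptors differed widely in level. Ackr3, the CXCL12 scavenger, was highest in VmSC5-derived VmSC5, at 738.9 and 604 CPM, followed by the OSM cultures at 410.0, 406 and 396 CPM. VmSC4-derived VmSC5 came next at 304 ± 13 CPM (SD, n = 3), then fresh VmSC5 at 226 ± 9.99 CPM (n = 3) and the cultures with Treg at 160 ± 4.84 CPM (n = 3). These 5 groups did not overlap with their neighbours in that order, while lower groups such as VmSC4-derived VmSC4 (86.5 CPM) and fresh VmSC4 (63.4 CPM) did. Treg libraries held 1 Ackr3 count in KO and 1 in WT.

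Ackr2, the scavenger of inflammatory CC chemokines, was found in fresh and transferred stromal cells and at low levels elsewhere. It stood at 108 ± 8.71 CPM in VmSC5-derived VmSC5 (n = 2), 70.3 ± 5.22 CPM in VmSC4-derived VmSC5 (n = 3), and between 27.8 and 48.6 CPM in each library of VmSC4-derived VmSC4, fresh VmSC5 and fresh VmSC4, whose ranges overlapped. The OSM cultures followed at 7.46 to 9.20 CPM, and the DTR+ floating cells had no Ackr2 count, which allows up to 0.202 CPM over that group (3 counts of its total). Such limits cover counting error only. Ackr4, the CCL19 and CCL21 scavenger, did not pass 14.2 CPM in any library, with its highest means in fresh VmSC4 (11.5 ± 2.56 CPM, n = 3) and VmSC4-derived VmSC4 (11 ± 1.36 CPM, n = 3), which overlapped.

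The ligand Cxcl12 was abundant in every stromal group and nearly absent from Treg. It was highest in the OSM cultures, at 2360.0, 2122 and 2117 CPM, next in VmSC5-derived VmSC5 (1038 and 1047 CPM), and then in the PBS cultures (976 ± 18.5 CPM, n = 3). The ranges of the PBS cultures and fresh VmSC4 overlapped. In Treg it had 5 counts over the KO libraries and 13 over the WT libraries.

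Cxcr4, the signalling receptor of CXCL12, was found in Treg and hardly in any other library. It had 75 counts over the KO and 221 over the WT Treg libraries. The other 36 libraries held 5 counts together, in VmSC4-derived VmSC4 (1), DTR- floating cells (3) and cultures without Treg (1). Zero counts allow up to 0.109 CPM in fresh VmSC5 and up to 0.781 CPM in the less deeply sequenced OSM cultures.

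Of the chemerin genes, Rarres2 was highest in VmSC5 after adipogenic culture (868, 639.6 and 718 CPM), and its next 5 groups overlapped their neighbours between 286 and 508 CPM per library. Cmklr1 was highest in the DTR- floating cells (278 and 248 CPM), with fresh VmSC5 next at 93.1 ± 19.5 CPM (n = 3). Ccrl2 was highest in Treg, at 82.7, 59.1 and 68.4 CPM in KO and 45.5, 59.6 and 50.5 CPM in WT, and no stromal or floating library passed 13.9 CPM. The chemerin gene thus stood highest in VmSC5 after 8 days of adipogenic culture, its signalling receptor in DTR- floating cells and its presenting receptor in Treg.

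**Figure D1:**
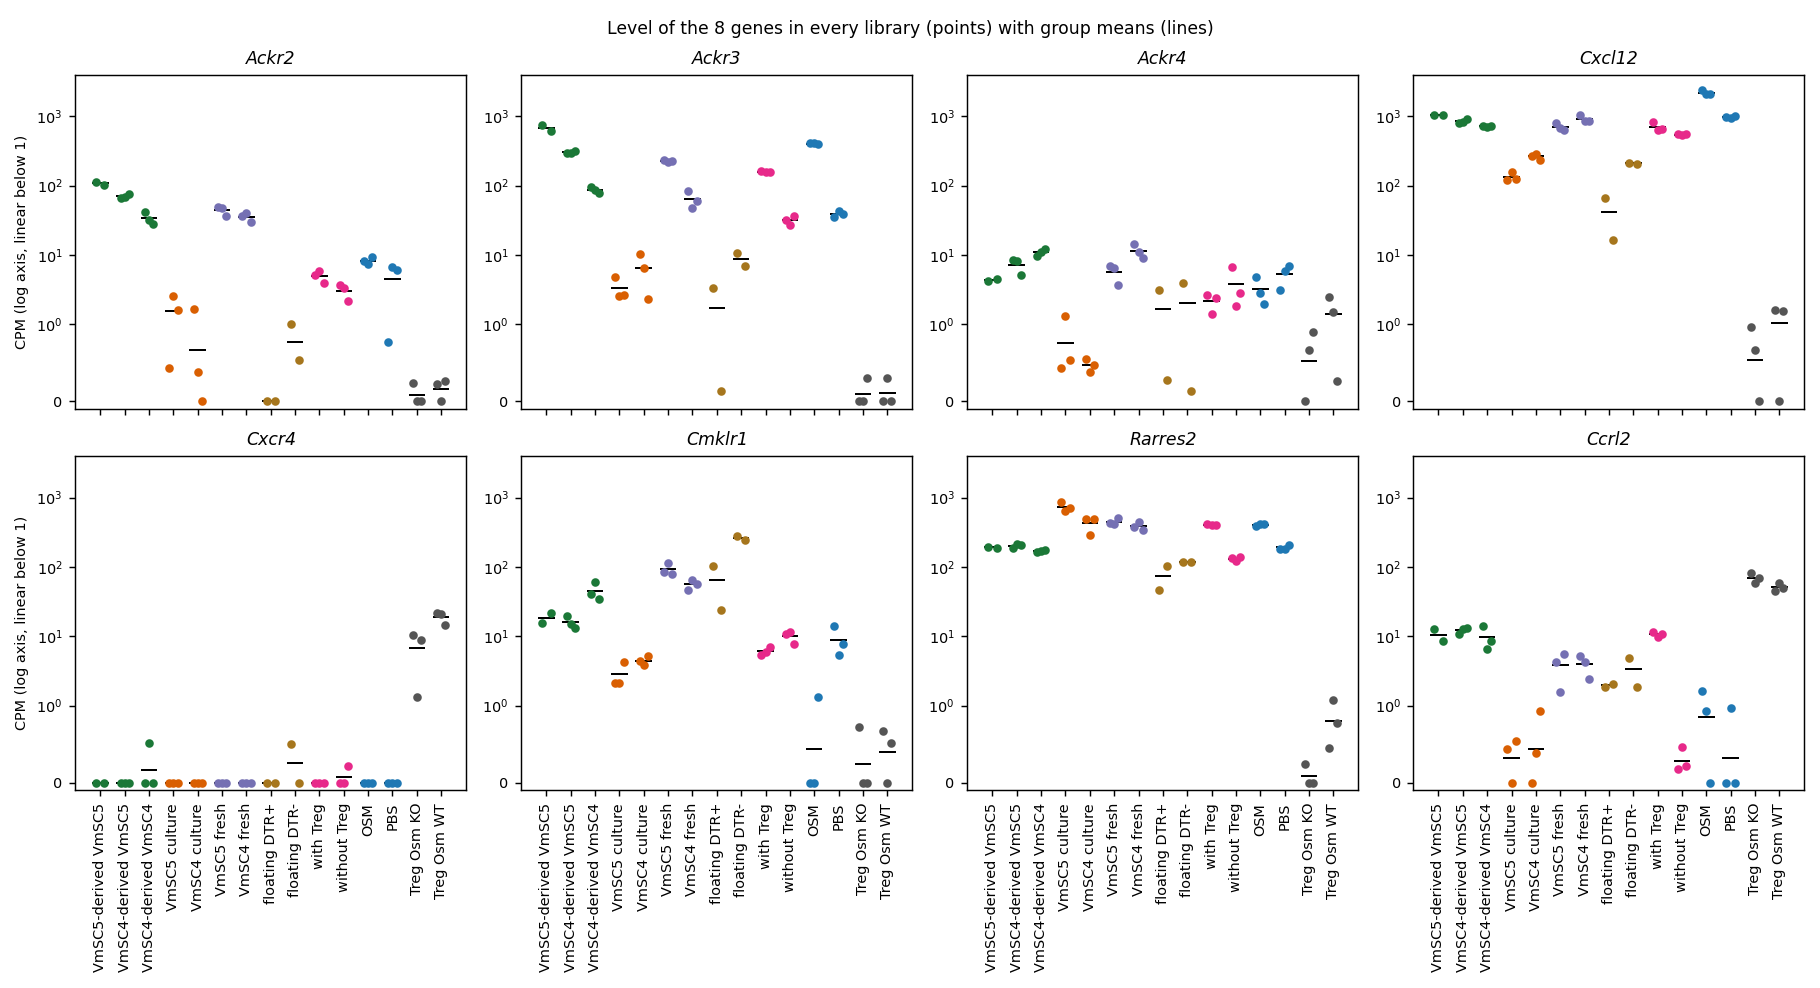
Level of each of the 8 genes in CPM (log axis, linear below 1) in every library. Points are libraries, lines are group means and colours mark the experiments; Ackr3 is highest in VmSC5-derived VmSC5, Cxcl12 in the OSM cultures, and Cxcr4 is near 0 outside Treg.

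Levels of different genes were compared per kilobase of exon (CPM per kb). The ratio of Ackr3 to Cxcl12 on this scale was 1.57 ± 0.23 in VmSC5-derived VmSC5 (n = 2), 0.873 ± 0.018 in VmSC4-derived VmSC5 (n = 3), 0.296 ± 0.026 in VmSC4-derived VmSC4 (n = 3), 0.793 ± 0.084 in fresh VmSC5 (n = 3) and 0.166 ± 0.029 in fresh VmSC4 (n = 3). VmSC5-derived VmSC5 was the only group in which the scavenger transcript exceeded its ligand per length. That order depends on the length used, here all annotated exons merged, 3348 bases for Ackr3 and 8176 bases for Cxcl12. In CPM, Cxcl12 (1038 and 1047) was above Ackr3 (738.9 and 604) in both libraries of this group. In culture the ratio was 0.561 ± 0.060 with Treg and 0.143 ± 0.020 without Treg, and 0.449 ± 0.022 with OSM and 0.0964 ± 0.0108 with PBS (n = 3 each), and it did not pass 0.0946 in any library of the 8-day adipogenic cultures.

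The ratio of Cmklr1 to Rarres2 per kb was 1.65 and 1.86 in the DTR- floating cells, against at most 0.274 in any library of fresh or transferred stromal cells. It was 0.00306 ± 0.00141 in VmSC5 and 0.00848 ± 0.00185 in VmSC4 after adipogenic culture (n = 3 each). The chemerin receptor transcript therefore exceeded the ligand transcript per length in both DTR- libraries and in 1 of the DTR+ libraries, which stood at 1.73 and 0.183.

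**Figure D2:**
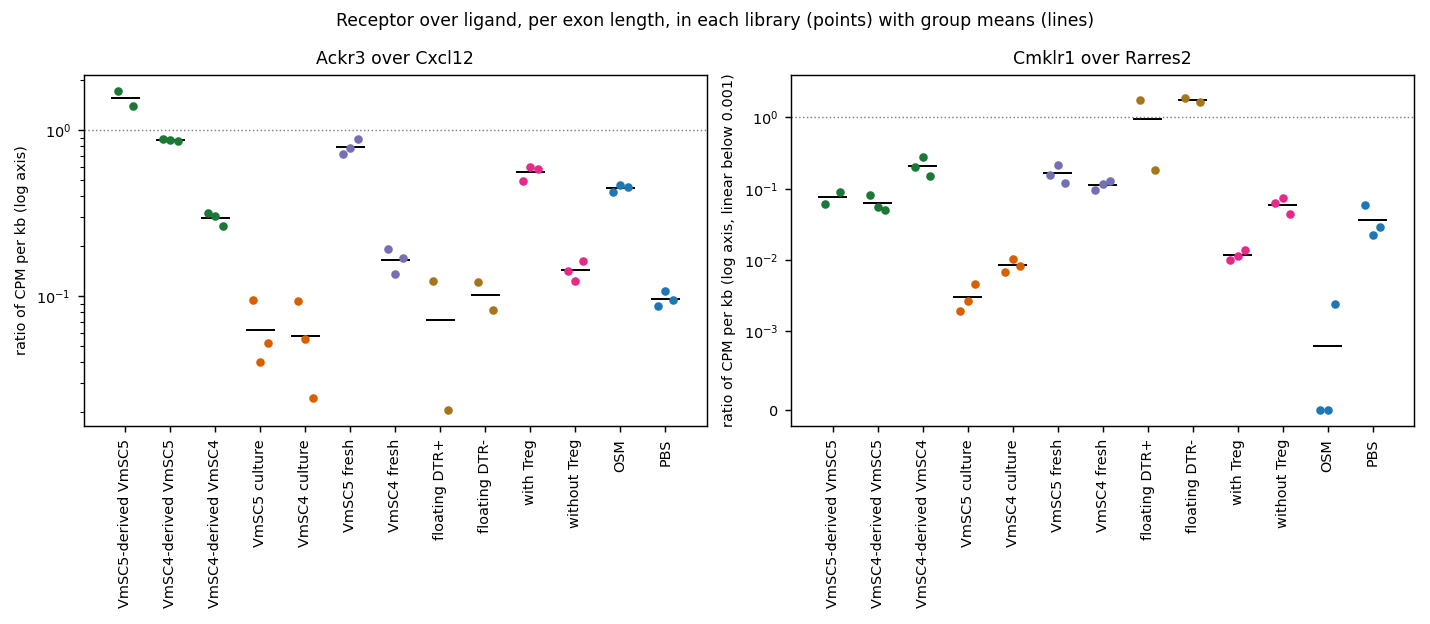
Ratio of Ackr3 to Cxcl12 (left) and of Cmklr1 to Rarres2 (right) in CPM per kb of exon, by group, on log axes (the right one linear below 0.001). Points are libraries and lines are group means; the dotted line marks equal levels, which Ackr3 passes in VmSC5-derived VmSC5 and Cmklr1 passes in 3 of 4 floating-cell libraries. Treg libraries, which held few counts of both ligand genes, are not drawn.

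The OSM cultures addressed whether the cytokine changes VmSC5 during adipogenic differentiation. Ackr3, Cxcl12 and Rarres2 rose with OSM. These 3 were the members that passed the filter on low counts, all 3 were called higher, and of all genes 22.8% were called higher and 23.0% lower. Ackr3 had 410.0, 406 and 396 CPM in the OSM cultures, against 34.8, 42.3 and 38.4 CPM in the PBS cultures. The OSM mean was 10.5-fold above the PBS mean, and the log2 fold change was 3.47 ± 0.12 (edgeR adjusted p = 1.2e-29). Cxcl12 had 2360.0, 2122 and 2117 CPM with OSM, against 979, 956 and 993 CPM with PBS, and the groups did not overlap (1.28 ± 0.08, edgeR adjusted p = 2e-19). Rarres2 had 390.0, 410.4 and 422 CPM with OSM, against 184, 182 and 209 CPM with PBS, again without overlap (1.20 ± 0.09, edgeR adjusted p = 1e-15).

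The other 5 members did not reach the filter. Cmklr1 had 0, 0 and 1.31 CPM with OSM, against 13.9, 5.29 and 7.67 CPM with PBS, all OSM libraries below all PBS libraries. That is 2 counts against 38, a 16.0-fold lower level with a 95% exact counting interval from 4.15-fold to 137-fold. Without the filter Cmklr1 was called lower (edgeR log2 fold change -3.79, adjusted p = 2.5e-05), as it was in DESeq2 (-4.05, adjusted p = 0.00758). Ackr2 had 8.02, 7.46 and 9.20 CPM with OSM, against 0.773, 6.74 and 5.97 CPM with PBS, and was not tested. Ackr4 had 1.97 to 4.81 CPM with OSM, against 3.09 to 6.82 CPM with PBS, with overlap. Ccrl2 had 3 counts with OSM and 2 with PBS, and Cxcr4 had none.

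Of 32 partner genes (other atypical receptors, chemokines taken up by these receptors, chemerin- and CXCL12-cutting proteases, arrestins and GRKs), 14 were tested, 11 rose and 2 fell with OSM. Their median log2 fold change was 0.93, against 0.004 over all genes tested. Arrb1, the β-arrestin that couples receptors to uptake, had the smallest p among them, at 468 CPM with OSM and 64.0 CPM with PBS (2.95 ± 0.11, edgeR adjusted p = 6.7e-28). Ctsl, a lysosomal protease, rose by 1.57 ± 0.08 (edgeR adjusted p = 7.6e-23). The CC chemokines Ccl11 (2.47 ± 0.17, edgeR adjusted p = 1.2e-17) and Ccl7 (2.84 ± 0.23, edgeR adjusted p = 2.8e-15) rose too. Stromal and adipocyte markers moved with these changes. The stromal list summed to 50550 to 61350 CPM with OSM and 12970 to 13260 CPM with PBS, all 8 of its genes being detected in both groups. The adipocyte list summed to 1395 to 1926 CPM with OSM and 18990 to 21320 CPM with PBS, Lep being at 0 in both. The endothelial list summed to 215 to 262 CPM with OSM and 74.9 to 90.4 CPM with PBS, the pericyte and smooth muscle list to 940.2 to 1237 CPM with OSM and 191 to 246 CPM with PBS, and the mesothelial list to 6.42 to 13.1 CPM with OSM and 57.1 to 108 CPM with PBS. Of these genes Upk3b was at 0 with OSM. In bulk cultures, fewer cells of a type and less RNA per cell cannot be told apart, and the part of the changed cell makeup in these results was not tested.

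The cultures with and without Treg asked whether VAT Treg act on VmSC5 directly. With Treg, Ackr3, Cxcl12, Rarres2 and Ccrl2 rose and Cmklr1 fell, so that 4 of 7 tested members were called higher and 1 lower, against 22.4% higher and 21.0% lower over all genes. Ackr3 had 164, 159 and 155 CPM with Treg, against 32.0, 27.0 and 36.8 CPM without (2.35 ± 0.09, edgeR adjusted p = 5.8e-23). Rarres2 had 415, 406 and 398 CPM with Treg, against 133, 123 and 137 CPM without (1.65 ± 0.06, edgeR adjusted p = 1.4e-22). Neither gene's groups overlapped, and the spread within each group was small beside the difference. Cxcl12 had 815, 643 and 644 CPM with Treg, against 551, 534 and 549 CPM without, a smaller rise of 0.38 ± 0.08 (edgeR adjusted p = 0.000649).

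Ccrl2, the chemerin-presenting receptor, had 11.3, 9.87 and 10.7 CPM with Treg, against 0.174, 0.460 and 0.215 CPM without. The rise was 5.10 ± 0.38 on the log2 scale (edgeR adjusted p = 6.7e-14), and from 238 against 5 counts the fold was 36.1 with a 95% exact counting interval from 15.3 to 112. Ccrl2 passed the filter on low counts only through the cultures with Treg, so the filter itself favoured its call as higher. Treg libraries had the highest Ccrl2 levels of the series. In these cultures the T cell list summed to 0.975 to 1.51 CPM with Treg and 0 to 1.22 CPM without, with Cd3g and Cd5 at 0 in both. The Treg list summed to 3.48 to 4.31 CPM with Treg and 3.30 to 4.09 CPM without, with Foxp3 at 0 with Treg, and the part of Treg RNA in the Ccrl2 level was not tested. Cmklr1 had 5.29, 5.98 and 7.10 CPM with Treg, against 10.8, 11.5 and 7.74 CPM without, a fall with a log2 fold change of -0.72 ± 0.21 (edgeR adjusted p = 0.00507) that DESeq2 did not call (adjusted p = 0.0564). Ackr2 had 5.04, 5.84 and 3.90 CPM with Treg and 3.65, 3.37 and 2.15 CPM without, which missed the threshold (0.67 ± 0.29, edgeR adjusted p = 0.0564), and the Ackr4 groups overlapped. Both calls depended on the setting. Over 11 alternative fits by edgeR or DESeq2, the adjusted p ran from 0.0251 to 0.235 for Ackr2 and from 0.0172 to 0.926 for Ackr4.

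Of 16 partners tested, 12 were called higher with Treg and 0 lower, with a median log2 fold change of 0.74 against -0.003 over all genes. Ligands of ACKR2 that attract monocytes and eosinophils had the smallest p. Ccl7 stood at 221 CPM with Treg and 2.88 CPM without (6.29 ± 0.12, edgeR adjusted p = 9.1e-32), Ccl11 at 237 and 6.36 CPM (5.25 ± 0.12, edgeR adjusted p = 5.9e-26) and Ccl2 at 147 and 4.91 CPM (4.88 ± 0.14, edgeR adjusted p = 8.1e-17). Adm, which encodes adrenomedullin, a ligand that ACKR3 can take up, rose by 0.93 ± 0.07 (edgeR adjusted p = 2.9e-14). The stromal list summed to 13110 to 15190 CPM with Treg and 5276 to 6208 CPM without, and the adipocyte list to 21860 to 24610 CPM with Treg and 33830 to 35970 CPM without. All 8 genes of both lists were detected in both groups. The macrophage list summed to 172 to 203 CPM with Treg and 266 to 314 CPM without, the endothelial list to 44.0 to 78.1 CPM with Treg and 82.8 to 102 CPM without (Vwf at 0), and the pericyte and smooth muscle list to 70.3 to 78.5 CPM with Treg and 117 to 146 CPM without. The mesothelial list summed to 23.5 to 40.3 CPM with Treg and 10.2 to 11.8 CPM without. The part of these cell types in the results was not tested.

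**Figure D3:**
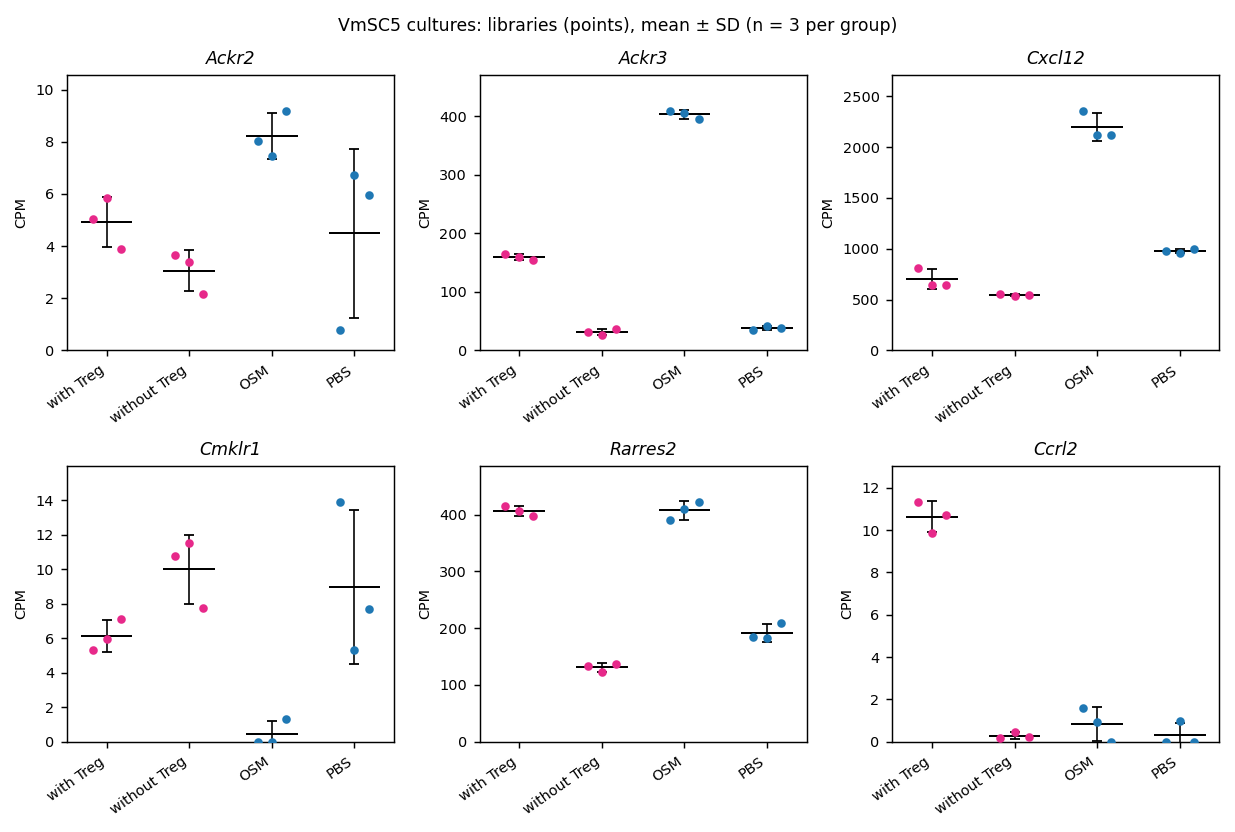
CPM of 6 members in VmSC5 cultures with and without Treg and with OSM and PBS. Points are libraries, lines and bars are mean ± SD (n = 3 per group); Ackr3, Cxcl12 and Rarres2 lie higher with Treg and with OSM in every library, and Ccrl2 lies higher with Treg in every library.

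The size of the OSM and Treg responses was compared in 1 fit of the 4 groups, as the OSM response minus the Treg response. Of 7 members tested, 4 were called, 2 of them higher and 2 lower, against 32.5% of all genes called in either direction. Ackr3 (1.17 ± 0.15, edgeR adjusted p = 2.4e-08) and Cxcl12 (0.94 ± 0.10, edgeR adjusted p = 5.3e-10) rose more with OSM. Rarres2 rose less with OSM (-0.41 ± 0.11, edgeR adjusted p = 0.00252) and Cmklr1 had the lower response (-3.08 ± 0.86, edgeR adjusted p = 0.00447). Ccrl2 differed by -4.13 ± 1.71, which edgeR did not call (adjusted p = 0.0597) and DESeq2 did (adjusted p = 0.034). It had 3 counts with OSM, 2 with PBS and 5 without Treg, against 238 with Treg. Ccrl2 thus passed the filter on low counts only through the cultures with Treg, so the filter itself favoured a negative difference. The OSM and PBS libraries held 1072147 to 2078534 counts and those with and without Treg 4648878 to 7933682, so experiment and depth cannot be told apart. On library totals in place of TMM scaling, the split over all genes was 1347 higher and 2635 lower, against 1817 and 2124. Among partners, 18 were tested, 4 were called higher (Arrb1 at 2.76 ± 0.14 and Ctsl at 0.94 ± 0.09 among them) and 4 lower (Ccl11 at -2.73 ± 0.24 and Ccl7 at -3.39 ± 0.32 among them).

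The fresh and transferred cells bear on the transition between VmSC4 and VmSC5. In the contrasts that chose the members, Ackr3 had 235, 216 and 228 CPM in fresh VmSC5, against 83.2, 47.0 and 59.8 CPM in fresh VmSC4, a log2 ratio of means of 1.84. After transfer it had 296, 296 and 318 CPM in VmSC4-derived VmSC5, against 95.3, 86.4 and 77.7 CPM in VmSC4-derived VmSC4, a log2 ratio of 1.81. In both descriptions every VmSC5 library lay above every VmSC4 library. VmSC5-derived VmSC5 lay further above VmSC4-derived VmSC4, with a log2 ratio of 2.96.

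Cmklr1 changed order between these descriptions. It had 85.6, 115 and 78.6 CPM in fresh VmSC5, against 46.9, 65.4 and 56.7 CPM in fresh VmSC4, but 19.8, 15.3 and 13.1 CPM in VmSC4-derived VmSC5, against 41.4, 60.0 and 34.3 CPM in VmSC4-derived VmSC4. The log2 ratios were 0.73 fresh and -1.49 after transfer. Ackr2 overlapped between fresh VmSC5 and fresh VmSC4, whereas VmSC4-derived VmSC5 (66.0, 68.7 and 76.1 CPM) lay above VmSC4-derived VmSC4 (41.9, 32.0 and 27.8 CPM), a log2 ratio of 1.05. Ackr4 was lower in VmSC5 in both, with log2 ratios of -1.01 fresh and -0.60 after transfer. Cxcl12 was at 703 ± 88.3 CPM in fresh VmSC5 and 922 ± 115 CPM in fresh VmSC4, and at 850 ± 51.4 CPM in VmSC4-derived VmSC5 and 714 ± 19.1 CPM in VmSC4-derived VmSC4 (n = 3 each).

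Transferred cells were then tested against fresh cells of the same population. These comparisons share their fresh libraries with the culture comparisons that follow. They also reuse libraries of the contrasts that chose Ackr3 or Cmklr1, so their p-values for these genes are not independent of that choice. In VmSC5-derived VmSC5, Ackr2, Ackr3, Cxcl12 and Ccrl2 rose and Cmklr1 and Rarres2 fell, which is 4 higher and 2 lower of 7 tested members, against 23.9% higher and 22.4% lower over all genes. Ackr3 had 738.9 and 604 CPM in VmSC5-derived VmSC5, against 215.7 to 235 CPM in the 3 fresh VmSC5 libraries (1.51 ± 0.16, edgeR adjusted p = 4.9e-08). Ackr2 had 114 and 102 CPM, against 48.6, 47.2 and 36.9 CPM in fresh VmSC5 (1.23 ± 0.17, edgeR adjusted p = 2.1e-06). Both scavengers were higher in each transferred library than in any fresh one. Cxcl12 had 1038 and 1047 CPM, against 801, 677 and 631 CPM in fresh VmSC5 (0.52 ± 0.12, edgeR adjusted p = 0.00143). Cmklr1 had 15.3 and 21.8 CPM, against 85.6, 115 and 78.6 CPM (-2.39 ± 0.24, edgeR adjusted p = 2.5e-08). Rarres2 had 196 and 189 CPM, against 432, 415 and 508 CPM (-1.29 ± 0.14, edgeR adjusted p = 3.9e-08). The chemerin ligand and its signalling receptor were thus lower after transfer, without overlap, in the VmSC5 that kept their label. Ccrl2 had 12.7 and 8.46 CPM, against 4.22, 1.60 and 5.63 CPM in fresh VmSC5 (1.42 ± 0.42, edgeR adjusted p = 0.00744), a call that ended without VmSC5-derived VmSC5 replicate 1 (adjusted p = 0.133). Ackr4 had 4.22 and 4.45 CPM, against 7.00, 6.49 and 3.64 CPM in fresh VmSC5, and the groups overlapped (-0.45 ± 0.37, edgeR adjusted p = 0.328).

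In VmSC4-derived VmSC4 against fresh VmSC4, 2 of 7 tested members were called higher and 2 lower, against 21.4% higher and 24.7% lower over all genes. Rarres2 had 162, 170.3 and 178 CPM in VmSC4-derived VmSC4, against 375, 441 and 346 CPM in fresh VmSC4 (-1.16 ± 0.12, edgeR adjusted p = 2.1e-08). The other 3 calls were small or rested on single libraries: Ccrl2 (1.36 ± 0.38, edgeR adjusted p = 0.00564), Ackr3 (0.47 ± 0.15, edgeR adjusted p = 0.0145) and Cxcl12 (-0.35 ± 0.11, edgeR adjusted p = 0.0141) all missed the threshold without VmSC4-derived VmSC4 replicate 1 (adjusted p = 0.0582, 0.0505 and 0.0647), Ackr3 also without fresh VmSC4 replicate 2 (0.0973), and Cxcl12 also without fresh VmSC4 replicate 1 (0.0994), without VmSC4-derived VmSC4 replicate 2 (0.0583) and with the 2 groups fitted alone (0.0637). Cxcl12 had 733, 695 and 712 CPM in VmSC4-derived VmSC4, against 1054, 847 and 864 CPM in fresh VmSC4. Ackr3 had 95.3, 86.4 and 77.7 CPM in VmSC4-derived VmSC4, against 83.2, 47.0 and 59.8 CPM in fresh VmSC4, with overlap. Ackr2, Ackr4 and Cmklr1 missed the threshold, and their groups overlapped.

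Of 18 partners tested, 5 were called higher and 7 lower in VmSC5-derived VmSC5, and 4 higher and 5 lower in VmSC4-derived VmSC4, each against its fresh population. The median log2 fold change was -0.39 in the first comparison (0.01 over all genes) and 0.17 in the second (-0.02 over all genes). Dpp4 rose by 2.71 ± 0.19 in VmSC5-derived VmSC5 (edgeR adjusted p = 2.8e-11) and by 3.85 ± 0.22 in VmSC4-derived VmSC4 (edgeR adjusted p = 5.2e-13). Gpr182, an atypical receptor that also binds CXCL12, fell by 4.88 in VmSC5-derived VmSC5 and by 3.54 in VmSC4-derived VmSC4 (edgeR adjusted p = 2.8e-08 and 6e-08). Arrb1 fell by 0.78 in VmSC5-derived VmSC5 and by 0.94 in VmSC4-derived VmSC4. Ctsl was the remaining gene named for VmSC5 (0.55 ± 0.13, edgeR adjusted p = 0.00114) and Ccl11 for VmSC4 (-1.18 ± 0.16, edgeR adjusted p = 2.5e-06). Stromal list sums were 98160 to 159300 CPM in the transferred libraries and 45650 to 52340 CPM in the fresh ones, with all 8 genes detected. The endothelial list summed to 195 to 258 CPM in VmSC5-derived VmSC5 and 99.4 to 134 CPM in fresh VmSC5. The adipocyte list summed to 1362 to 1602 CPM in VmSC5-derived VmSC5 and 2079 to 2151 CPM in fresh VmSC5, and to 1100 to 1327 CPM in VmSC4-derived VmSC4 and 1425 to 1808 CPM in fresh VmSC4. The macrophage list summed to 16.6 to 19.9 CPM in VmSC4-derived VmSC4 and 22.7 to 36.0 CPM in fresh VmSC4. Their part in the results was not tested.

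Between the 2 origins of transferred VmSC5, Ackr3 was the only member called. This test reuses the VmSC4-derived VmSC5 libraries that helped to choose Ackr3, so its p-value for Ackr3 is not independent of that choice. It had 296, 296 and 318 CPM in VmSC4-derived VmSC5, against 738.9 and 604 CPM in VmSC5-derived VmSC5, and the groups did not overlap (-1.08 ± 0.16, edgeR adjusted p = 0.000391). Over all genes 0.523% were called higher and 0.624% lower. Ackr2 also had no overlap (66.0, 68.7 and 76.1 CPM against 114 and 102 CPM) but missed the threshold (-0.55 ± 0.17, edgeR adjusted p = 0.145), and it was called with these 2 groups fitted alone (adjusted p = 0.00844). Of 18 partners tested only Ccl11 was called (-0.99 ± 0.17, edgeR adjusted p = 0.00252). On library totals the split over all genes was 55 higher and 119 lower, against 73 and 87 with TMM scaling. The stromal list summed to 151900 to 159300 CPM in VmSC4-derived VmSC5 and 98160 to 99990 CPM in VmSC5-derived VmSC5, and its part in the Ackr3 difference was not tested.

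**Figure D4:**
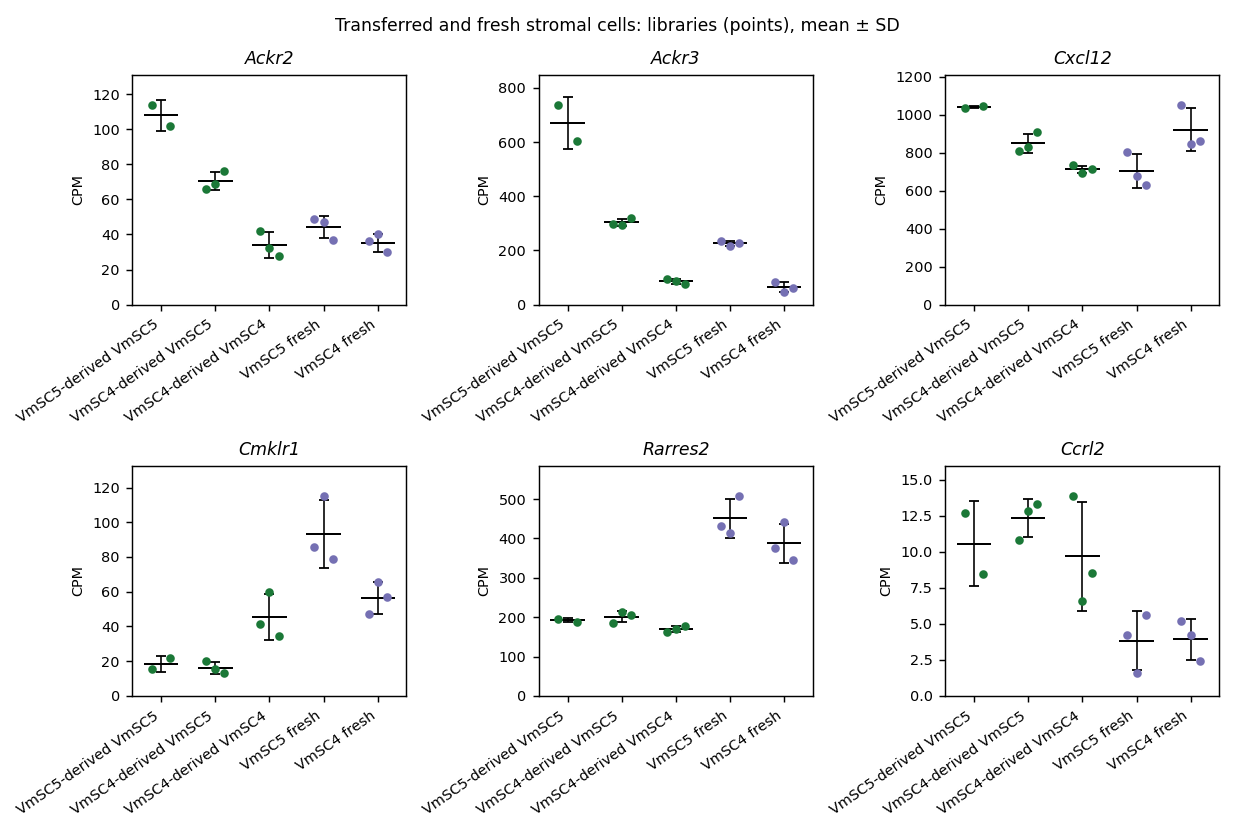
CPM of 6 members in transferred and fresh stromal cells. Points are libraries, lines and bars are mean ± SD (n = 2 for VmSC5-derived VmSC5, n = 3 otherwise); Ackr3 and Ackr2 are highest in VmSC5-derived VmSC5, and Rarres2 is lower in every transferred library than in every fresh one.

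Ackr2 and Ackr4 fell in adipogenic culture of both populations, and Ackr3 was lower in every cultured library than in any fresh one. In VmSC5 after 8 days, 1 of 7 tested members was called higher and 6 lower, against 33.4% higher and 37.6% lower over all genes. In VmSC4, 1 of 7 was called higher and 6 lower, against 31.9% and 38.5%. Cxcr4 had no count in these 4 groups. Ackr3 had 4.73, 2.58 and 2.67 CPM in cultured VmSC5, against 235, 216 and 228 CPM in fresh VmSC5, a 68.0-fold lower mean. In VmSC4 it had 10.3, 6.52 and 2.33 CPM after culture, against 83.2, 47.0 and 59.8 CPM fresh, a 9.92-fold lower mean. The difference between the 2 culture responses, -2.78 as a difference of log2 ratios, helped to choose Ackr3. Its values in these 4 groups are therefore a description with no test, and its place among the 6 lower members of each count supports nothing. Ackr2, Ackr4 and Ccrl2, also among the 6, passed the filter on low counts only through fresh libraries. The filter itself thus favoured their calls as lower.

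Ackr2 fell to 0.430 to 2.58 CPM in cultured VmSC5, against 36.9 to 48.6 CPM in fresh VmSC5 (-4.41 ± 0.37, edgeR adjusted p = 6.6e-11). In cultured VmSC4 it had 4 counts in all, against 1249 in fresh VmSC4 (-5.28 ± 0.46, edgeR adjusted p = 9.9e-11). Ackr4 had 5 counts in cultured and 160 in fresh VmSC5 (-2.45 ± 0.56, edgeR adjusted p = 0.000384), and 3 in cultured and 409 in fresh VmSC4, a 25.4-fold lower level with a 95% exact counting interval from 8.63-fold to 124-fold (-4.07 ± 0.58, edgeR adjusted p = 8.7e-07). Ccrl2 had 2 counts in cultured and 104 in fresh VmSC5, a 12.3-fold lower level with an interval from 3.31-fold to 103-fold (-3.14 ± 0.91, edgeR adjusted p = 0.0035). In VmSC4 it had 3 counts cultured and 140 fresh, a level 8.70-fold lower, with an interval from 2.92-fold to 42.7-fold (-2.54 ± 0.83, edgeR adjusted p = 0.00885). Few counts of these 3 receptors were left in the cultures, and they passed the filter on low counts only through the fresh libraries.

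Cmklr1 fell to 2.15 to 4.28 CPM in cultured VmSC5, against 78.6 to 115 CPM in fresh VmSC5 (-4.64 ± 0.28, edgeR adjusted p = 4.2e-14), and to 3.84 to 5.12 CPM in cultured VmSC4, against 46.9 to 65.4 CPM in fresh VmSC4 (-3.13 ± 0.26, edgeR adjusted p = 4.1e-11). Cxcl12 fell less and stayed well detected. It had 122, 157 and 124 CPM in cultured VmSC5, against 801, 677 and 631 CPM in fresh VmSC5 (-1.96 ± 0.14, edgeR adjusted p = 1.3e-12), and 269, 290 and 232 CPM in cultured VmSC4, against 1054, 847 and 864 CPM in fresh VmSC4 (-1.26 ± 0.13, edgeR adjusted p = 3.9e-09).

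Rarres2 was the 1 member called higher. It had 868, 639.6 and 718 CPM in cultured VmSC5, against 432, 415 and 508 CPM in fresh VmSC5 (1.14 ± 0.18, edgeR adjusted p = 1.9e-05). In VmSC4 its groups overlapped, at 499.5, 286 and 486 CPM cultured and 375, 441 and 346 CPM fresh, and the call (0.67 ± 0.18, edgeR adjusted p = 0.00295) depended on the scaling: on library totals the log2 fold change was 0.12 (adjusted p = 0.532). Library totals lowered the median log2 fold change of all genes by 0.54 in VmSC4 and by 0.43 in VmSC5 relative to TMM scaling. The split over all genes became 3013 higher and 7046 lower in VmSC4, against 4212 and 5095, and 3484 and 6416 in VmSC5, against 4416 and 4973.

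Of 16 partners tested, 1 was called higher and 12 lower in cultured VmSC5, and 2 higher and 10 lower in cultured VmSC4. The median log2 fold change was -3.36 in VmSC5 (-0.18 over all genes) and -1.56 in VmSC4 (-0.23 over all genes). Mmp2, a matrix protease that inactivates CXCL12, stood at 69.1 CPM in cultured and 2565 CPM in fresh VmSC5 (-4.79 ± 0.15, edgeR adjusted p = 3.5e-20), and fell by 4.76 ± 0.15 in VmSC4 (edgeR adjusted p = 4.3e-20). Mif, a CXCR4 and ACKR3 ligand, rose by 3.75 ± 0.16 in VmSC5 and 3.59 ± 0.16 in VmSC4 (both called by edgeR). Ctsk, a protease that cuts chemerin, fell by 3.63 in VmSC5 and 3.83 in VmSC4, and Ccl11 stood at 2.04 CPM in cultured VmSC5, against 721 CPM fresh. The stromal list summed to 1618 to 1717 CPM in cultured VmSC5 and 1389 to 1677 CPM in cultured VmSC4, against 45650 to 52340 CPM in the fresh cells, and the adipocyte list to 42800 to 46420 CPM in culture, against 1425 to 2151 CPM fresh. The pericyte and smooth muscle list summed to 366 to 605 CPM in culture, against 35.9 to 118 CPM fresh, and the mesothelial list to 4.19 to 17.2 CPM in culture, against 0 to 2.24 CPM fresh. The endothelial list summed to 26.1 to 36.3 CPM in culture, against 59.0 to 134 CPM fresh, with Cdh5, Emcn and Vwf at 0 in both cultures. The cultured libraries held 1841664 to 2606360 counts and the fresh ones 8527769 to 12514783. The part of cell makeup and depth in these changes was not tested.

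Between VmSC5 and VmSC4 after culture, Cxcl12 was the member called by edgeR, 1 of 7 and lower, against 0.129% higher and 0.212% lower over all genes. Cxcl12 had 122, 157 and 124 CPM in cultured VmSC5, against 269, 290 and 232 CPM in cultured VmSC4, without overlap (-1.003 ± 0.138, edgeR adjusted p = 0.000169). Rarres2 had 868, 639.6 and 718 CPM, against 499.5, 286 and 486 CPM in cultured VmSC4, also without overlap, and missed the threshold (0.78 ± 0.18, edgeR adjusted p = 0.0827), while it was called without the filter on low counts (adjusted p = 5.1e-08), with the replicate number as a block (0.0417) and by DESeq2 (0.00927). Of 16 partners 0 were called by edgeR, with 4 at an unadjusted p under 0.05, as were 1040 of 13221 genes.

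The floating cells addressed what Treg depletion does to VAT adipocytes. No member of 6 tested was called in DTR+ against DTR- cells by edgeR, and 0.491% of all genes were called higher and 1.94% lower. At an unadjusted p under 0.05 in edgeR were 3 members, and 1940 of 11803 genes. DESeq2 called 1 member, and 497 of 12570 genes. Cxcl12 had 66.1 and 16.2 CPM in DTR+ cells, against 215 and 204 CPM in DTR- cells (-2.09 ± 0.63, edgeR adjusted p = 0.0902, DESeq2 adjusted p = 0.0207). Cmklr1 had 105 and 23.9 CPM in DTR+ cells, against 278 and 248 CPM in DTR- cells (-1.79 ± 0.63, edgeR adjusted p = 0.158). Ackr3 had 3.34 and 0.136 CPM in DTR+ cells, against 10.8 and 6.84 CPM in DTR- cells (-2.14 ± 0.91, edgeR adjusted p = 0.242). For these 3 genes both DTR+ libraries lay below both DTR- libraries, and DTR+ replicate 3 gave the lowest value each time. Ackr3 had 1 count in that library, so it would not have passed the filter on low counts without the DTR- libraries. The filter itself thus favoured a lower Ackr3 level in DTR+ cells.

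Leaving out single libraries changed these calls, for all genes as for the members. Each such fit leaves 1 library in a group, so its calls carry no weight for the members. Over all alternative settings the log2 fold change ran from -2.90 to -1.58 for Cxcl12 and from -2.67 to -1.25 for Cmklr1. It ran from -5.11 to -1.31 for Ackr3 and from -1.225 to 0.593 for Rarres2. Rarres2 had 47.0 and 102 CPM in DTR+ cells, against 117 and 117 CPM in DTR- cells, a log2 ratio of means of -0.65, while its TMM-scaled log2 fold change was -0.07 ± 0.63. Library totals lowered the median of all genes by 0.36 on the log2 scale and left 0 genes called by edgeR, with 1343 at an unadjusted p under 0.05. Ackr4 and Ccrl2 overlapped between the groups. Ackr2 had no count in DTR+ cells, against 10 counts in DTR- cells, and Cxcr4 had none against 3, and neither was tested. Among 18 partners only Ccl2 was called, at 25.9 CPM in DTR+ and 4.25 CPM in DTR- cells (3.10 ± 0.71, edgeR adjusted p = 0.0217).

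Markers of other cell types moved with these levels. In DTR+ against DTR- cells the stromal list summed to 220.0 to 242 against 757 to 1885 CPM, the endothelial list to 20.2 to 49.0 against 453 to 552 CPM, the pericyte and smooth muscle list to 36.0 to 77.6 against 232 to 321 CPM and the mesothelial list to 3.82 to 20.3 against 31.4 to 94.0 CPM. The macrophage list summed to 214 to 216 against 355 to 425 CPM. All genes of these lists were detected in both groups. The adipocyte list was at 45240 to 45910 CPM in DTR+ and 45900 to 46330 CPM in DTR- cells. Their part in the levels of Cxcl12, Cmklr1 and Ackr3 was not tested.

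The Treg libraries asked what the altered Osm gene does to VAT Treg. Of 2 members tested, 0 were called by edgeR or by DESeq2, and edgeR called 0.0526% of all genes in either direction. Both members had an unadjusted p under 0.05 in edgeR, as did 1158 of 11416 genes. Cxcr4 had 10.3, 1.33 and 8.96 CPM in KO Treg, against 21.4, 21.0 and 14.3 CPM in WT Treg (-1.33 ± 0.51, edgeR adjusted p = 0.407). Ccrl2 had 82.7, 59.1 and 68.4 CPM in KO Treg, against 45.5, 59.6 and 50.5 CPM in WT Treg (0.48 ± 0.22, edgeR adjusted p = 0.492). The Cxcr4 groups did not overlap and the Ccrl2 groups did, by 1 library of each. Cxcr4 was lowest in KO replicate 2, where 2 counts gave 1.33 CPM. With that library so low, Cxcr4 would not have passed the filter on low counts without the WT libraries. The filter itself thus favoured a lower Cxcr4 level in KO. The macrophage list summed to 64.0 CPM in KO replicate 1, the library with the most Ccrl2. It summed to 9.29 and 5.67 CPM in KO replicates 2 and 3 and to 4.10 to 14.4 CPM in WT. Its part in the Ccrl2 levels was not tested. Without KO replicate 1, 586 genes were called, against 6 with all libraries. The other 6 members did not pass the filter in Treg. Of 11 partners tested 0 were called, with 2 at an unadjusted p under 0.05.

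**Figure D5:**
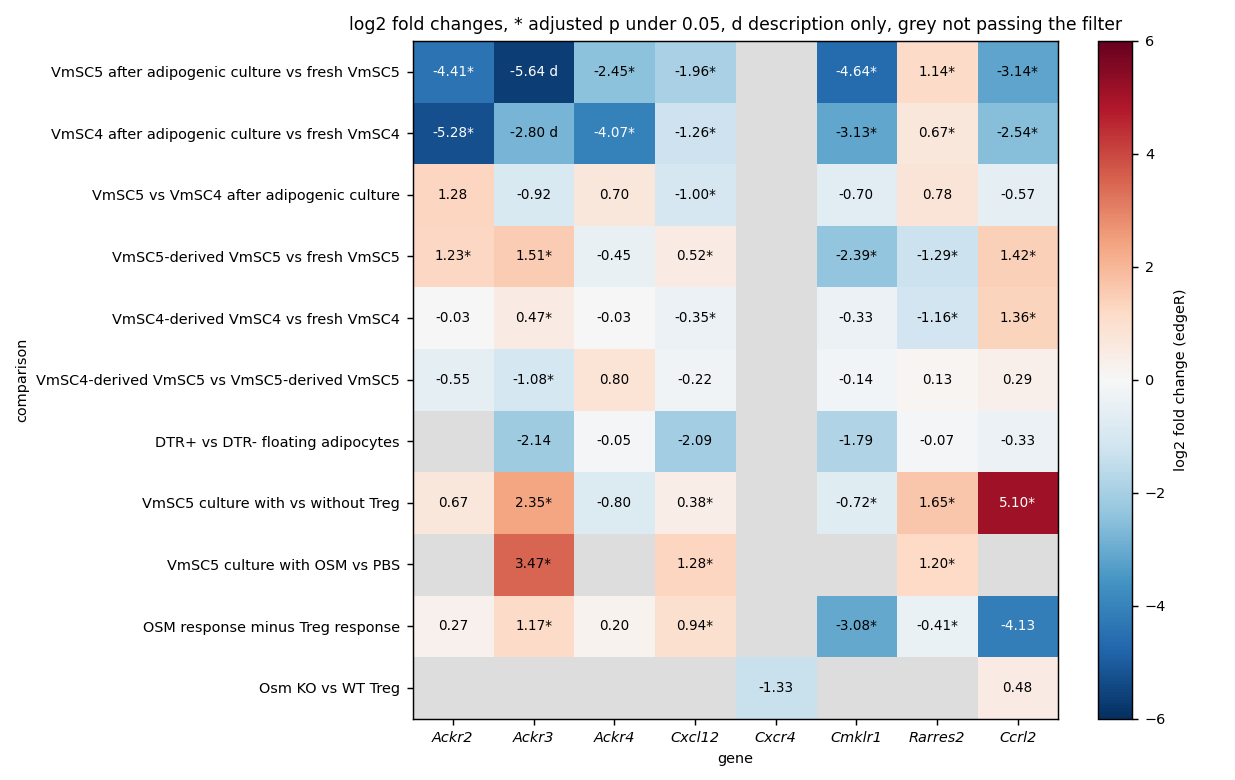
Log2 fold changes (edgeR) of the 8 members in the 11 comparisons tested, coloured from blue (lower in the first-named group) to red (higher). An asterisk marks adjusted p under 0.05, d marks values given as a description with no test, and grey marks genes that did not pass the filter. Ackr3 is higher with OSM, with Treg and in VmSC5-derived VmSC5 set against fresh VmSC5, and Cmklr1 is lower in adipogenic culture. The smaller Ackr3 rise in VmSC4-derived VmSC4 came with overlapping groups, and its call depended on single libraries. The transfer comparisons reuse libraries of the contrasts that chose Ackr3 or Cmklr1.

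The genes most alike to each member were taken as the 3 highest Pearson correlations of log2(mean CPM + 1) over the 15 groups, among 12284 genes. The groups share cell type and preparation, so the values only describe common ups and downs. Most of these names changed with the measure, 7 of 24 being named again by Spearman correlation. Ackr3 was most like Prickle2, Sdk1 and Pkd2 (r = 0.951 each), Ackr2 like Lgi4, Fap and Creb5 (0.981 to 0.988), and Ackr4 like C7, Amot and Wdr35 (0.931 to 0.945). Cxcl12 was most like Slc35f5, Loxl1 and Serpinh1 (0.982 to 0.984), and Cxcr4 like the predicted genes Gm17322, Gm38292 and Gm17173 (0.995 to 0.997). Cmklr1 was most like Ctdspl, Rgma and Cry2 (0.937 to 0.947), Rarres2 like Rbpms, Litaf and Akr1b8 (0.966 to 0.975), and Ccrl2 like Inpp1, Trim12a and Trim5 (0.941 to 0.958). Among the members themselves, Ackr3 and Cxcl12 correlated at 0.865 and Cxcl12 and Rarres2 at 0.894 over the 15 groups. Other pairs included Ackr2 and Ackr3 at 0.874 and Cmklr1 and Rarres2 at 0.404. Cxcr4 correlated at -0.878 with Cxcl12 and at -0.927 with Rarres2. Ackr3, Cxcl12 and Rarres2 were all near 0 in both Treg groups, which enter each of these values.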

How the data were processed

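RNA-seq of 42 mouse libraries was deposited by the authors as raw counts per gene, aligned to mm10 with STAR 2.7.3a and counted with featureCounts, per the submitters' processing notes. Fresh libraries came from 1000 sorted cells and floating-cell libraries from 2 ng of RNA, while cultures were lysed in the well, per the labels' protocols. Groups follow the sample titles. Every column of the table was mapped to a sample (0 unmapped), and no replicate pair was identical (lowest chi-square per gene 1.54). Positions and exon lengths are from GENCODE M21.

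The members and lists were chosen with earlier results of these data known. Counts were tested with edgeR 4.0.16 (quasi-likelihood, TMM scaling, filterByExpr with a minimum count of 10) in R 4.3.3, with Benjamini-Hochberg adjustment over all genes, in fits of each experiment's groups. CPM here divides by library totals, so it can differ from TMM-scaled fold changes. The scripts were tested on simulated counts. The plot of fold changes holds all 8 members in each comparison, and the text names up to 4 called partners of smallest p. Alternatives were RLE scaling, no filter, a replicate block, DESeq2 1.42.0, 2 groups fitted alone, single libraries left out and, added after seeing the data, library totals as scaling and a crossed block. Intervals and limits (3 counts) cover counting error only. Not every marker list is reported here.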

Additional observations from a re-analysis of the deposited data

Results flagged for a closer look

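The responses of 4 members to OSM and to Treg differed in the test of the difference (edgeR, OSM response minus Treg response). The difference was 1.17 for Ackr3 and 0.94 for Cxcl12, which rose more with OSM. It was -0.41 for Rarres2, which rose less with OSM, and -3.08 for Cmklr1, for which the OSM and PBS cultures held 2 and 38 counts.

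Cxcl12 moved in opposite directions after transfer. The log2 ratio of mean CPM was 0.57 for VmSC5-derived VmSC5 against fresh VmSC5 and -0.37 for VmSC4-derived VmSC4 against fresh VmSC4, with each transferred library on its side of every fresh one. The difference between the 2 populations was not tested. No group had 4 or more libraries, so single libraries were not tested for standing apart.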

How the results depend on the processing

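Of 794 refitted values of the members, 760 kept their side of the threshold, 10 lost the call, 24 gained it and 0 called values reversed. Among the 760 were 28 values, not called in either fit, that changed sign. All 231 recomputed values of the untested contrasts moved by less than 1 SD. Most of them left out 1 library and were set against the SD of the same libraries. Such a shift is almost bound to stay under 1 SD, so this says little about stability. Between cultured VmSC5 and VmSC4, 1 member was called, and 2 without the filter, with the replicate block and in DESeq2 (1 to 2 with single libraries left out), since Rarres2 was added. In VmSC4-derived VmSC4 against fresh VmSC4, 4 were called and 1 to 4 with single libraries left out. Between VmSC4-derived and VmSC5-derived VmSC5, 1 was called, and 2 with these groups alone. In DTR+ against DTR- cells 0 were called by edgeR and 1 by DESeq2. In edgeR 3 members were at an unadjusted p under 0.05, as were 1940 of 11803 genes. The causes were not tested. Where a group was left with 1 library, that library was assumed to vary like the other groups.

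No comparison had every same-numbered pair correlated above 0.1, so the numbers were not taken as pairing, and the replicate block changed no other count of members called. In DTR+ and DTR- cells same-numbered libraries correlated at -0.397, and a crossed block, chosen after seeing the data, called 1055 genes against 287, and 3 members.

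Counts over all genes moved most in 4 comparisons. Cultured VmSC5 against VmSC4 had 45 calls, 167 without the filter, 108 in DESeq2, 215 with 2 groups alone and 17 to 99 with libraries left out. VmSC4-derived against VmSC5-derived VmSC5 had 160, then 314, 266, 529 and 31 to 84 in the same order. DTR+ against DTR- cells had 287, with 111 under the block, 497 in DESeq2, 0 on library totals and 6 to 5370 with libraries left out. KO against WT Treg had 6, with 199 without the filter, 50 in DESeq2 and 0 to 586 with libraries left out. In the OSM experiment, with 1072147 to 2078534 counts per library, 3 of 8 members passed the filter. Of the 24 genes named as most like a member, 7 were also named by Spearman correlation and 9 with a pseudocount of 0.1.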
